A study of Homo sapiens with 6 samples.

Results

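GPRC5A and the genes set beside it were followed in A549, a line from a human lung adenocarcinoma, in which CNOT3 had been knocked down, a subunit of the CCR4-NOT complex that trims poly(A) tails. Members were the 9 genes GPRC5A, GPRC5B, GPRC5C, RARA, RARB, DHRS3, CRABP2, RARRES1 and TGM2, read through every probe set that the platform annotation gave to that gene alone, which made 28 of the 54675 probe sets and 9 of 19775 genes. GPRC5A was chosen by its change with doxycycline (DOX) in the knockdown lines. The other 8 were set beside it as its paralogs and as genes of retinoic acid signalling, to ask whether they moved with it.

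There were 6 arrays. The line shCNOT3-1 with DOX, the line shCNOT3-2 with DOX, and the same lines without DOX carried a tetracycline-inducible hairpin against CNOT3, with a different target sequence in each line. The control line, shNTC, carried a non-targeting hairpin in the same system and was also grown with and without DOX. DOX, which turns the hairpin on, was present at 1 ug/ml for 72 hours, and all 3 lines were stable lentiviral derivatives of A549. Each line and DOX state had 1 array, so values within a line have no replicate, and the 2 hairpins are the replicates of knockdown.

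GPRC5A encodes an orphan receptor of the G protein-coupled class, first found as a gene that retinoic acid induces, and it is abundant in lung epithelium. Retinoic acid is made from vitamin A and binds nuclear receptors of the RAR family, which sit on DNA as partners of RXR receptors and switch on genes that hold a retinoic acid response element. Among such genes are RARB, which encodes a receptor itself, and enzymes that store or break down retinoids, so that the signal limits itself.

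Values are array intensities on a linear scale, and log2 changes set DOX over no DOX within a line after adding 1. A probe set was too dim to test where its mean lay under a filter level of 61.4, the median of all probe sets. CNOT3 itself checks the labels. Its brightest probe set, 203239_s_at, read 81.9 with and 227 without DOX in shCNOT3-1, 46.9 and 228 in shCNOT3-2, and 166 and 178 in shNTC. A second probe set, 229143_at, was also lower with DOX in shNTC, at 95.6 with and 259 without, beside log2 changes of -2.13 in shCNOT3-1 and -2.22 in shCNOT3-2. Median log2 changes with DOX over the 12630 genes tested were 0.05 in shCNOT3-1, 0.02 in shCNOT3-2 and -0.01 in shNTC. Of the epithelial markers, the keratins KRT8 and KRT18 read 30881 to 52581 on the 6 arrays, CDH1 4296 to 7004, KRT19 462 to 1361 and EPCAM 132 to 372. EPCAM was lower with DOX in both knockdown lines (-0.47 and -0.37) and higher in shNTC (0.76), and KRT19 was higher in all 3 lines (1.13, 0.45 and 0.38). Of other cell types, 5 of 8 markers of blood, endothelium and fibroblasts were too dim to test, while the brightest probe sets of CD14, PECAM1 and COL1A1 read 107 to 553. In the ACTB control probe sets the ratio of 3' to 5' signal, a measure of RNA integrity, was 1.42 with and 1.33 without DOX in shCNOT3-1, 1.45 and 1.36 in shCNOT3-2, and 1.47 and 1.58 in shNTC. It was thus higher with DOX in both knockdown lines and lower in shNTC. The GAPDH ratio was 1.03 with and 0.98 without DOX in shCNOT3-1, 1.05 and 1.09 in shCNOT3-2, and 0.966 and 0.980 in shNTC, so there the hairpins went opposite ways. The part of either ratio in the results was not tested.

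GPRC5A was more than 2-fold higher with DOX in each knockdown line and hardly differed in the control line. Its brightest probe set, 203108_at, read 15447 with and 6739 without DOX in shCNOT3-1, 16597 with and 5358 without in shCNOT3-2, and 5255 with and 5039 without in shNTC. The 2 knockdown arrays with DOX were the highest of the 6, and the other 4 lay between 5039 and 6739. In folds the change was 2.29 in shCNOT3-1, 3.10 in shCNOT3-2 and 1.04 in shNTC. On the log2 scale the knockdown lines averaged 1.41 ± 0.31 (SD, n = 2), against 0.06 in shNTC. These values placed GPRC5A on the list and are given as a description, with no test.

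**Figure D1:**
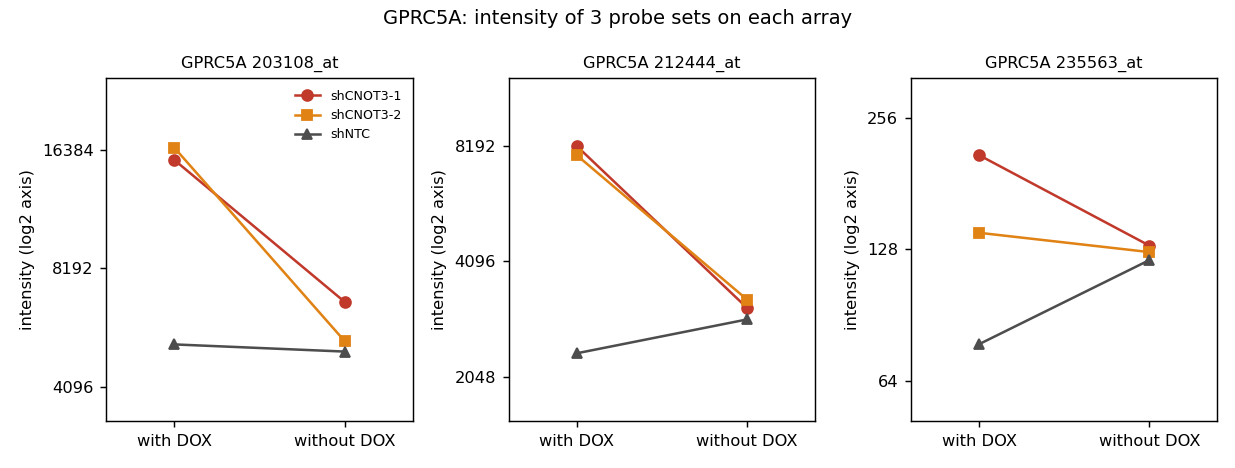
Intensity (log2 axis) of the 3 GPRC5A probe sets with DOX (left) and without DOX (right), 1 point per array, lines joining the arrays of shCNOT3-1, shCNOT3-2 and shNTC. In 203108_at and 212444_at both knockdown lines with DOX stand above the other 4 arrays, at 15447 and 16597 and at 8171 and 7735. They are also the highest in the less bright 235563_at, at 211 and 140, where all arrays lie between 77.6 and 211.

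The other GPRC5A probe sets were higher with DOX in both knockdown lines too, but by unequal amounts. 212444_at read 8171 with and 3097 without DOX in shCNOT3-1, 7735 and 3255 in shCNOT3-2, and 2359 and 2889 in shNTC. 235563_at was far dimmer, at 211 with and 131 without DOX in shCNOT3-1, 140 and 126 in shCNOT3-2, and 77.6 and 121 in shNTC. The mean log2 change of the knockdown lines was 1.32 ± 0.11 (SD, n = 2) for 212444_at and 0.42 ± 0.38 (SD, n = 2) for 235563_at, against -0.29 and -0.63 in shNTC. Which hairpin gave the larger change also depended on the probe set, being shCNOT3-2 for 203108_at and shCNOT3-1 for the others.

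A fold rule was set for all genes tested, at least 2-fold in both knockdown lines, where shNTC moved that way by less than 0.5 times the weaker of the hairpins. It took 82 genes higher (0.649% of those tested) and 54 lower (0.428%), and GPRC5A, chosen by this same change, was one of the 82 by that choice. Of the other 8 listed genes 0 met it in either direction. In the limma model with a block for line, 13 genes passed an adjusted p of 0.05 as higher (0.103%) and 15 as lower (0.119%), and of the other 8 listed genes 0 were among them. At an unadjusted p under 0.05 in limma 1 of the 8 was higher, RARB, and 0 were lower, where 7.45% of all genes were higher and 7.08% lower.

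The 8 other genes had no common direction. Their median log2 changes with DOX were -0.10 in shCNOT3-1, 0.12 in shCNOT3-2 and 0.18 in shNTC, beside 0.05, 0.02 and -0.01 over all genes tested. In their brightest probe sets 2 of 8 were above 0 in both knockdown lines (33.2% of all genes), 2 were below 0 in both (26.9%), and in 4 the hairpins had opposite signs (39.9%). With no block for line, 100 genes passed as higher and 91 as lower, and of the 8 listed genes 0 passed there either. For the change beyond that of shNTC, limma called 0 of 12630 genes (0%), with 1061 at an unadjusted p under 0.05 (8.40%), and the adjusted p of the 8 genes ran from 0.652 to 0.995.

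**Figure D2:**
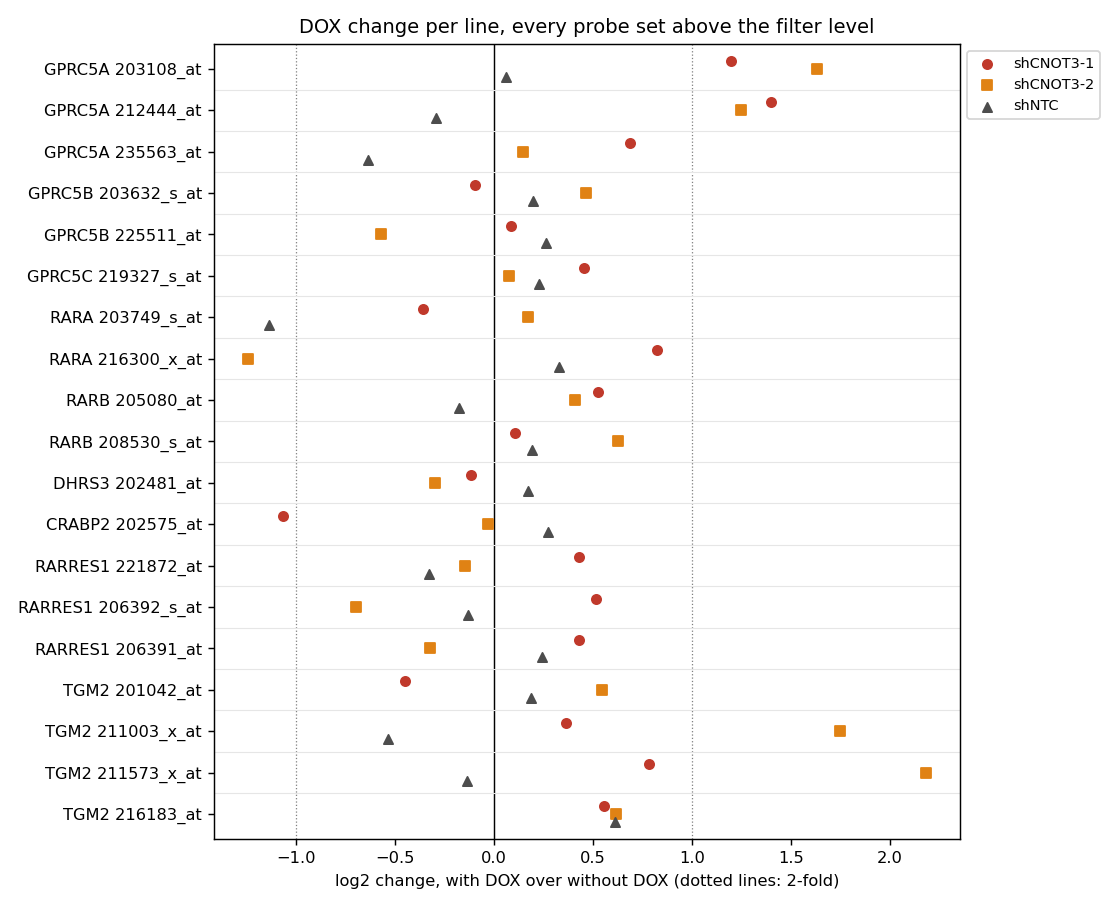
Log2 change with DOX over without DOX for each of the 19 probe sets of the 9 genes whose mean lay at or above the filter level, 1 point per line, dotted lines marking a 2-fold change. Only the GPRC5A probe sets 203108_at and 212444_at have both knockdown lines past 2-fold. Among the 16 probe sets of the other genes 0 do so in either direction. Under the fold rule, which also limits shNTC, 0.649% of all genes tested were higher and 0.428% lower in their brightest probe set.

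GPRC5B and GPRC5C encode orphan receptors of the same family as GPRC5A. GPRC5B read 1215 with and 1296 without DOX in shCNOT3-1, 1562 and 1133 in shCNOT3-2, and 1323 and 1155 in shNTC, in probe set 203632_s_at. It was thus slightly lower with DOX in one knockdown line and higher in the other, and the control line lay between them at a log2 change of 0.20. Its mean knockdown change was 0.18 ± 0.21 (SE of the model, adjusted p = 0.741 in limma), with a 95% interval of -0.29 to 0.66. A second GPRC5B probe set, 225511_at, turned the hairpins round, with log2 changes of 0.08 in shCNOT3-1, -0.57 in shCNOT3-2 and 0.26 in shNTC. In 203631_s_at and 228313_at, whose means were too dim to test, GPRC5B was lower with DOX in both knockdown lines and higher in shNTC. There 203631_s_at read 15.9 with and 42.2 without DOX in shCNOT3-1, 21.2 and 65.3 in shCNOT3-2, and 43.4 and 14.4 in shNTC. Those readings lie near or under the filter level of 61.4, so their size is uncertain.

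GPRC5C read 991 with and 723 without DOX in shCNOT3-1, 513 and 486 in shCNOT3-2, and 812 and 693 in shNTC, in probe set 219327_s_at. All 3 lines were higher with DOX, shNTC included, and shCNOT3-2 was the lowest line in both states. The mean knockdown change was 0.27 ± 0.22 (SE, adjusted p = 0.616 in limma), with a 95% interval of -0.22 to 0.75. Without shCNOT3-1 it was 0.079, and without shCNOT3-2 0.45. The change beyond shNTC was 0.04 (95% interval -0.85 to 0.93). A dim second probe set, 230907_at, gave 0.43 in shCNOT3-1 and -0.51 in shCNOT3-2. GPRC5D, the remaining paralog, was even with DOX in shCNOT3-1, at 131 with and 133 without, and read 127 and 81.5 in shCNOT3-2. In shNTC it read 81.9 with DOX against 16.3 without, a value under the filter level, so its largest log2 change, 2.26, was in the control line.

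Of the receptors, RARB had the lowest adjusted p of the 8 other genes in its brightest probe set, though not with its probe sets averaged. Retinoic acid induces RARB through a response element next to its start, a direct repeat of a short receptor motif with a 5-base gap (DR5). Promoter windows in the RefSeq table (GRCh38.p14), which run from 250 bases before to 50 bases after a start, were found for 6 of the 9 genes, and GPRC5A, GPRC5C and TGM2 were not matched. The elements searched, on both strands, were DR5, DR2 and DR1, direct repeats of that motif in 4 spellings with gaps of 5, 2 and 1 bases. A DR5 lay in 1 of the 13 windows of the listed genes, at RARB, and in 31 of all 35116 windows (0.0883%). DR2 and DR1 elements were in 0 of the 13, and in 0.0399% and 0.131% of all windows. The RARB window, chr3:25428013-25428312 on the plus strand, is shown because it holds the only such element found in the windows of the listed genes. Capitals mark the DR5, which spans positions 25428210 to 25428226, from 53 to 37 bases before the start.
RARB: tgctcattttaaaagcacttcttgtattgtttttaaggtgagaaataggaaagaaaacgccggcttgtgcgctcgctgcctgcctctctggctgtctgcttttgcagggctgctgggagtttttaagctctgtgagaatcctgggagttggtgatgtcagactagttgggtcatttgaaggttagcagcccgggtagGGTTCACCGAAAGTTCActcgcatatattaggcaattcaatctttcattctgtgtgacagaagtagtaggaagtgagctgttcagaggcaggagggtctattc

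In probe set 205080_at RARB read 1317 with and 915 without DOX in shCNOT3-1, 1873 and 1410 in shCNOT3-2, and 1206 and 1363 in shNTC. Both knockdown lines were higher with DOX and shNTC was lower, but the groups overlapped, since shCNOT3-1 with DOX lay under shCNOT3-2 and shNTC without it. The knockdown change was 0.47 ± 0.19 (SE, adjusted p = 0.312 in limma), with a 95% interval of 0.03 to 0.90, and the hairpins were close to each other (0.52 and 0.41). A second probe set above the filter level, 208530_s_at, gave 0.11 in shCNOT3-1, 0.63 in shCNOT3-2 and 0.19 in shNTC. The 3 dim RARB probe sets did not share a direction, with mean changes of -0.23, -1.14 and 0.55. Averaging the 5 probe sets moved the knockdown change of RARB to 0.0042 (adjusted p = 0.997 in limma).

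RARA, a widely expressed retinoic acid receptor, read 187 with and 241 without DOX in shCNOT3-1, 292 and 259 in shCNOT3-2, and 109 and 239 in shNTC, in probe set 203749_s_at. The lines without DOX were within 239 to 259, and the array that stood apart was shNTC with DOX, at a log2 change of -1.13. The knockdown change was -0.09 ± 0.38 (SE, adjusted p = 0.946 in limma). 216300_x_at, of a kind that can bind several transcripts, gave changes of 0.82 in shCNOT3-1 and -1.24 in shCNOT3-2. The other 3 RARA probe sets were too dim to test.

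DHRS3, a retinaldehyde reductase that lowers the supply of retinoic acid and is itself induced by it, read 1916 with and 2076 without DOX in shCNOT3-1, 1479 and 1818 in shCNOT3-2, and 2107 and 1872 in shNTC. It was a little lower with DOX in both knockdown lines and a little higher in shNTC. The knockdown change was -0.21 ± 0.19 (SE, adjusted p = 0.657 in limma), with a 95% interval of -0.62 to 0.21. Without shCNOT3-2 the value was -0.12.

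CRABP2, which carries retinoic acid to its receptors in the nucleus, read 58.5 with and 123 without DOX in shCNOT3-1, 127 and 129 in shCNOT3-2, and 154 and 127 in shNTC. The arrays without DOX were nearly level, and the single low reading, under the filter level, was shCNOT3-1 with DOX. The hairpins therefore differed, at -1.06 in shCNOT3-1 and -0.03 in shCNOT3-2. Their mean was -0.55 ± 0.40 (SE, adjusted p = 0.575 in limma). Without shCNOT3-1 the value was -0.03.

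RARRES1, a membrane protein named for its induction by retinoids, was higher with DOX in shCNOT3-1 and lower in shCNOT3-2 in all 3 of its probe sets. The brightest, 221872_at, read 899 with and 668 without DOX in shCNOT3-1, 562 and 621 in shCNOT3-2, and 545 and 685 in shNTC. 206392_s_at gave log2 changes of 0.51 and -0.70 in the hairpins and 206391_at 0.43 and -0.32. For the brightest the knockdown change was 0.14 ± 0.23 (SE, adjusted p = 0.835 in limma), which is the average of 0.43 and -0.14.

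TGM2, a transglutaminase that cross-links proteins and is a classic retinoic acid-induced gene, depended on both the hairpin and the probe set. Its brightest probe set, 201042_at, read 3300 with and 4510 without DOX in shCNOT3-1, 6168 and 4221 in shCNOT3-2, and 4479 and 3935 in shNTC. Here shCNOT3-2 with DOX was the highest array and shCNOT3-1 with DOX the lowest. The knockdown change was 0.05 ± 0.23 (SE, adjusted p = 0.954 in limma).

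**Figure D3:**
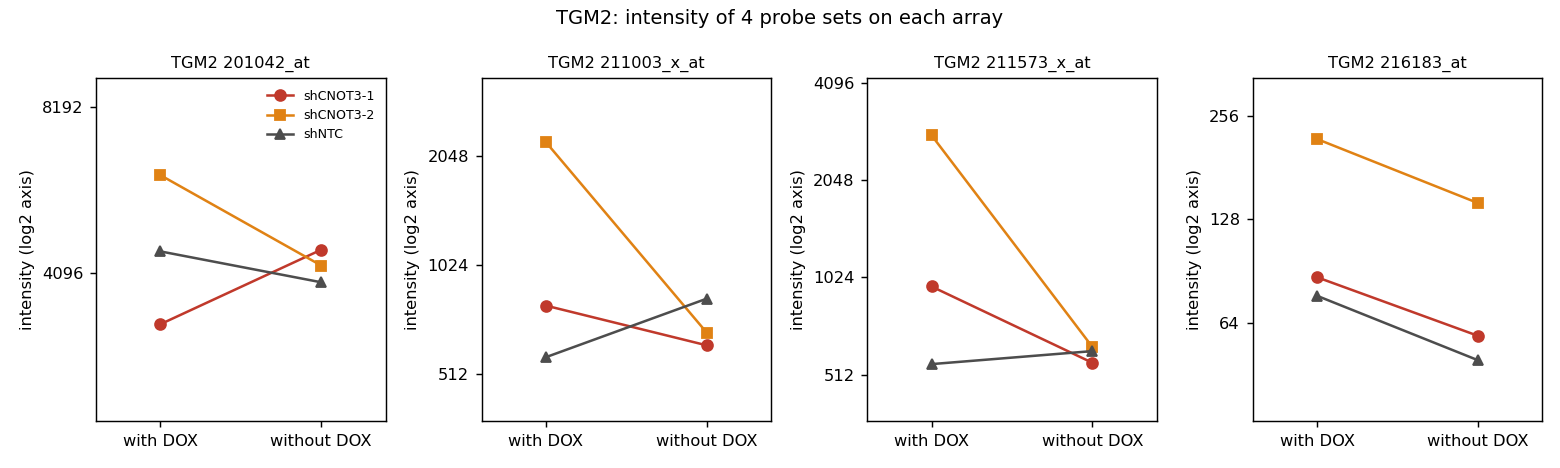
Intensity (log2 axis) of the 4 TGM2 probe sets with DOX (left) and without DOX (right), 1 point per array, lines joining the arrays of each line. shCNOT3-2 with DOX is the highest array in every panel, at 2826 in 211573_x_at where the other arrays read 552 to 960. shCNOT3-1 with DOX is the lowest array in 201042_at. In 216183_at shCNOT3-2 is the highest line without DOX too, at 143, against 58.7 in shCNOT3-1 and 49.8 in shNTC.

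In 211573_x_at TGM2 read 960 with and 557 without DOX in shCNOT3-1, 2826 and 623 in shCNOT3-2, and 552 and 605 in shNTC. 211003_x_at read 792 with and 615 without DOX in shCNOT3-1, 2241 and 666 in shCNOT3-2, and 570 and 828 in shNTC. Both of these probe sets, of a kind that can bind several transcripts, were higher with DOX in each knockdown line and lower in shNTC, with log2 changes past 2-fold (2.18 and 1.75) in shCNOT3-2 alone. For single lines, 3.59% of genes were at least 2-fold higher in shCNOT3-2 in their brightest probe set. In its own brightest probe set TGM2 was not, at a log2 change of 0.55. The least bright, 216183_at, gave 0.56 in shCNOT3-1, 0.61 in shCNOT3-2 and 0.61 in shNTC, so the control line changed as much as the hairpins did. Averaging the 4 probe sets moved the knockdown change of TGM2 to 0.79 (adjusted p = 0.289 in limma).

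Over the rest of the pathway the picture was mixed. Further lists of retinoid receptors, synthesis, uptake, breakdown, responder and coregulator genes, with GPRC5D, held 38 genes, of which 30 had a probe set of their own and 25 were bright enough to test. Of the 25, limma called 0 at an adjusted p of 0.05 for knockdown, beside 0.103% higher and 0.119% lower of all genes. At an unadjusted p under 0.05, 3 were higher (DHRS9, CD38 and PLAAT4) and 2 lower (NRIP1 and MEIS2), beside 7.45% higher and 7.08% lower of all genes, and DHRS9 and PLAAT4 were named after their values were seen. For the change beyond shNTC limma called 0 of the 25, as it called 0 of all 12630 genes tested. Of the 25, 5 were at an unadjusted p under 0.05 in limma, beside 8.40% of all genes. They were ALDH1A3, CYP26A1 and PLAAT4 as higher (1.36, 1.53 and 1.45) and MEIS2 and GPRC5D as lower (-1.06 and -1.95), with adjusted p from 0.420 upwards in limma. ALDH1A3, an enzyme that makes retinoic acid, was also named after its values were seen, and read 654 with and 524 without DOX in shCNOT3-1, 525 and 349 in shCNOT3-2, and 244 and 459 in shNTC. Median log2 changes of the 25 were -0.02 in shCNOT3-1, -0.01 in shCNOT3-2 and 0.18 in shNTC. Under the 2-fold rule for both knockdown lines 0 of the 25 were higher and 0 lower, beside 0.649% and 0.428% of all genes.

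**Figure D4:**
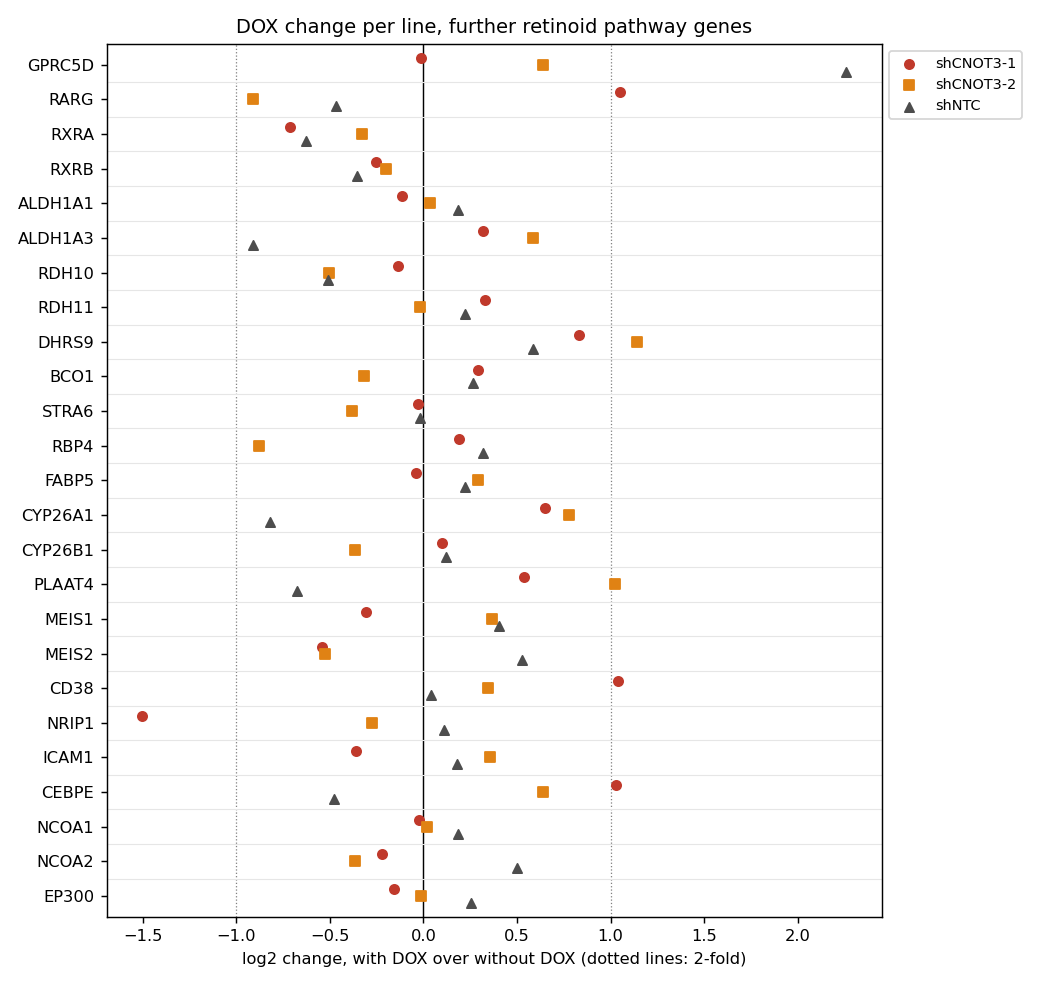
Log2 change with DOX over without DOX for the brightest probe set of each of the 25 further genes tested, 1 point per line, dotted lines marking a 2-fold change. No gene has both knockdown lines past 2-fold, and the farthest points are GPRC5D in shNTC (2.26) and NRIP1 in shCNOT3-1 (-1.50).

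Among the genes that retinoic acid induces, CD38, an enzyme that breaks down NAD, read 1232 with and 600 without DOX in shCNOT3-1, 716 and 564 in shCNOT3-2, and 594 and 577 in shNTC. Its level was thus high on 1 array, and the knockdown change was 0.69 ± 0.23 (SE, adjusted p = 0.225 in limma). NRIP1, a corepressor of nuclear receptors, read 1766 with and 5008 without DOX in shCNOT3-1, 3814 and 4615 in shCNOT3-2, and 4549 and 4214 in shNTC. It too stood apart on 1 array, shCNOT3-1 with DOX, in the opposite direction (-0.89 ± 0.26, SE, adjusted p = 0.174). MEIS2, a homeobox factor, gave -0.54 and -0.53 in the hairpins and 0.53 in shNTC (knockdown adjusted p = 0.303 in limma). PLAAT4, a phospholipase known also as RARRES3, gave 0.53 and 1.02, against -0.67 in shNTC (adjusted p = 0.328).

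CYP26A1, the enzyme that breaks down retinoic acid and one of its most strongly induced genes, read 216 with and 138 without DOX in shCNOT3-1, 258 and 150 in shCNOT3-2, and 64.1 and 114 in shNTC. The knockdown lines with DOX were the highest arrays and shNTC with DOX the lowest, though no reading was above 258. Its knockdown change was 0.71 ± 0.37 (SE, adjusted p = 0.424 in limma). The related CYP26B1 gave 0.10 and -0.37 in the hairpins and 0.12 in shNTC, in 219825_at. A dimmer CYP26B1 probe set near the filter level, 234721_s_at, gave 1.93 in shCNOT3-1, -1.81 in shCNOT3-2 and 0.30 in shNTC.

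Of the enzymes and carriers of the pathway, the brightest, ALDH1A1, FABP5 and RDH11, lay close to no change in the mean of the hairpins. ALDH1A1, which makes retinoic acid from retinaldehyde and is abundant in A549, read 28770 with and 31181 without DOX in shCNOT3-1, 34259 and 33479 in shCNOT3-2, and 36397 and 32032 in shNTC. Its knockdown change was -0.04 ± 0.11 (SE, adjusted p = 0.908 in limma). The retinol dehydrogenases RDH11 and RDH10 gave 0.16 ± 0.16 and -0.32 ± 0.22 (SE, adjusted p = 0.699 and 0.543 in limma), and RDH10 was also lower in shNTC (-0.51). In 227467_at RDH10 gave -0.31 in shCNOT3-1, -0.88 in shCNOT3-2 and -0.25 in shNTC. In the dimmer 1552378_s_at RDH10 gave 0.25, -0.34 and -0.46 in the same order. DHRS9, a dehydrogenase able to act on retinol, had the largest change of the 25, at 429 with and 241 without DOX in shCNOT3-1, 490 and 222 in shCNOT3-2, and 358 and 238 in shNTC. In this probe set, 219799_s_at, it was higher with DOX in every line, and the knockdown change was 0.99 ± 0.27 (SE, adjusted p = 0.160 in limma), against 0.58 in shNTC. DHRS9 was likewise higher in every line in 223952_x_at, at 0.66 and 1.02 in the hairpins and 0.53 in shNTC. In the dimmer 224009_x_at DHRS9 gave 0.80 and 1.67 in the hairpins and -0.17 in shNTC. FABP5, a fatty acid binding protein that also carries retinoic acid, had a mean knockdown change of 0.13. That of STRA6, the receptor for retinol binding protein, was -0.21. RBP4, that binding protein, had a mean of -0.34, from 0.19 in shCNOT3-1 and -0.88 in shCNOT3-2, with 0.32 in shNTC.

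For the receptor partners, RXRA read 573 with and 940 without DOX in shCNOT3-1, 734 and 921 in shCNOT3-2, and 708 and 1094 in shNTC. In this probe set, 202449_s_at, it was lower with DOX in all 3 lines, by -0.71, -0.33 and -0.63 on the log2 scale. The control line was there within the range of the hairpins. A dimmer RXRA probe set, 202426_s_at, gave 0.53, -0.31 and -0.46 in the same order. RXRB gave -0.26, -0.20 and -0.36 in 209148_at, but -0.87, -1.35 and 1.03 in 215098_at, which lay near the filter level. RARG, also near that level, gave 1.05, -0.91 and -0.47 in 204188_s_at but -0.99, 1.01 and -1.10 in 204189_at. The coactivators NCOA1, NCOA2 and EP300 had mean knockdown changes of -0.0023, -0.29 and -0.085, with adjusted p from 0.585 to 0.998 in limma.

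The profile of GPRC5A over the 6 arrays was then compared with the 3539 tested genes whose log2 intensity spanned at least 1. The 6 genes most like it by Pearson's r were the non-coding RNA DLGAP1-AS2 (0.993), the ciliary gene CFAP46 (0.992), NPC1, which exports cholesterol from lysosomes (0.989), SUPT3H, a subunit of a histone acetylase complex (0.987), ID3, an inhibitor of helix-loop-helix factors (0.987), and the small GTPase RHOF (0.986). NPC1, for example, read 6822 with and 3011 without DOX in shCNOT3-1, 6104 and 2430 in shCNOT3-2, and 2365 and 2580 in shNTC. ID3 read 16331 with and 7676 without DOX in shCNOT3-1, 15623 and 6598 in shCNOT3-2, and 7536 and 6189 in shNTC. The 6 were picked for this likeness, so their changes of 0.99 to 1.33 in the knockdown lines follow from the choice. The arrays share 3 lines, and the r values describe 6 arrays only. In the same measure GPRC5B gave 0.585, RARB 0.485, RARRES1 0.340, RARA 0.277, TGM2 0.198 and GPRC5C 0.111, while DHRS3 (-0.599) and CRABP2 (-0.638) had negative values. Of these 8, GPRC5B, RARRES1, TGM2 and DHRS3 spanned under 1 on the log2 scale and so lay outside the 3539 genes.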

How the data were processed

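Each deposited value was the intensity of a probe set, not on a log scale, which the authors produced in MAS5, per the submitters' processing notes, its settings not given in the sources used here. Precision is limited by the number of arrays, and depth is no measure for them. Median intensity was 64.9 to 72.8 per array. Symbols came from the platform annotation, updated through Entrez identifiers for 41037 of 41091 probe sets with 1 gene.

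Log2 was taken after adding 1. A gene was represented by its brightest probe set, and the 7145 genes with a mean log2 under 5.96 (an intensity of 61.4, the median of all probe sets) were called too dim, which left 12630 tested. All 9 listed genes passed, as did 19 of their 28 probe sets. Tests were 2-sided in limma 3.58.1 (R 4.3.3), whose prior variance followed intensity, and p-values were adjusted by Benjamini-Hochberg over all genes tested. The model held the stable line as a block and a knockdown term, and a second model added a DOX term. Pairing by line comes from the labels, each line having been grown in both states. Deviations of the shCNOT3 lines from their group means correlated at 0.06 between the states. The labels mention no repeat cultures, and p-values thus reflect the spread between arrays alone. In the first model that spread came from the DOX change of shNTC and the difference between the hairpins. Its knockdown change is the mean DOX change of both knockdown lines, and that of shNTC is not taken off. The fits were tested on simulated data.

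The members, lists and tests were chosen with earlier results of these data known. Genes were named as listed members, as up to 3 per further list by intensity, or as the 6 most like GPRC5A, and DHRS9, PLAAT4 and ALDH1A3 were named after their values were seen. Alternatives covered scaling, the added constant, the filter, which probe set stands for a gene, the prior, the block and the omission of each line. Of the 38 further genes, 8 were not analysed here for want of a probe set assigned to them alone. Figures used Python 3.11.15 and matplotlib 3.10.9.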

Additional observations from a re-analysis of the deposited data

Results flagged for a closer look

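For 3 genes both knockdown lines moved one way with DOX and shNTC the other, in the brightest probe set. Of these, CRABP2 hardly moved in shCNOT3-2 (-0.03), and its reading in shCNOT3-1 with DOX, 58.5, was under the filter level. The mean log2 change of the shCNOT3 lines minus that of shNTC was 0.64 for RARB, -0.38 for DHRS3 and -0.82 for CRABP2. None passed the limma test of that difference, with adjusted p of 0.684, 0.809 and 0.802. That test called 0 of all 12630 genes tested, so not passing it says nothing particular to these 3. In the second RARB probe set above the filter level, 208530_s_at, shNTC was higher with DOX too, and the same difference was 0.17.

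For 4 genes the hairpins moved in opposite directions in the brightest probe set, and with 1 pair of arrays per line this difference was not tested. The change in shCNOT3-2 minus that in shCNOT3-1 was 1.00 for TGM2, 0.56 for GPRC5B, 0.53 for RARA and -0.57 for RARRES1. In the other TGM2 probe sets both hairpins were higher with DOX. The signs were reversed in 225511_at of GPRC5B and 216300_x_at of RARA, and were kept in the other RARRES1 probe sets. Opposite signs were found in 39.9% of all genes tested.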

How the results depend on the processing

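GPRC5A kept its direction under the 12 alternatives run, with mean knockdown changes from 1.05 (mean of its probe sets) to 1.63 (without shCNOT3-1), and 1.20 without shCNOT3-2. Of 94 values of the other 8 genes under these alternatives 0 passed an adjusted p of 0.05, the lowest being 0.287, and 6 turned sign: GPRC5B to -0.70 with the mean of its probe sets and -0.093 without shCNOT3-2, RARA to 0.22 with no replicate block and 0.17 without shCNOT3-1, RARRES1 to -0.14 without shCNOT3-1 and TGM2 to -0.45 without shCNOT3-2. With 1 line left out these genes ran from -0.093 to 0.46 (GPRC5B), -0.36 to 0.17 (RARA), -0.14 to 0.43 (RARRES1) and -0.45 to 0.55 (TGM2), and with no sign change 0.079 to 0.45 (GPRC5C), -0.30 to -0.12 (DHRS3), -1.06 to -0.031 (CRABP2) and 0.41 to 0.52 (RARB). The mean of probe sets also lowered RARB to 0.0042, GPRC5C to 0.11 and RARRES1 to 0.035. RARA could not be fitted with the mean of its probe sets, and CRABP2 could not be fitted at the stricter filter, being too dim there.

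Counts over all genes moved more. Under some alternatives few or no genes passed at all, so the listed genes not passing there says little about them. In place of 13 higher and 15 lower, 24 and 35 were called after median centring, 24 and 30 at the 60th percentile filter, 1 and 2 with no filter, 3 and 3 with probe sets averaged per gene, 0 and 0 with no intensity trend, and 100 and 91 with no replicate block. Leaving out each line gave 12 to 30 higher and 27 to 46 lower. Beyond shNTC, 10 genes were called after median centring. In place of 82 and 54 under the 2-fold rule there were 413 and 266 with no filter, 51 higher at the 60th percentile filter, 35 lower with the mean of probe sets, 111 lower with every probe set as a feature, 321 and 285 at 1.5-fold, 23 and 9 with shCNOT3-1 in the place of shNTC, and 11 and 10 with shCNOT3-2 there. At a likeness of 0.95 or more to GPRC5A stood 44 genes by Pearson's r and 14 by Spearman's rho. The causes were not tested. Changes of the 28 probe sets in each line kept their sign under the 3 scaling and constant alternatives, the largest shift being 1.14 after adding 16.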
